A study of Mus musculus with 2 samples.

Results

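Arterial-like endothelial cells of the mouse leptomeninges, the thin pia and arachnoid membranes that cover the brain and carry its surface arteries, were described from single-cell RNA sequencing. They were chosen by counts of unique molecular identifiers (UMIs, tags that mark single captured RNA molecules). Barcodes entered with 400 or more genes detected and a mitochondrial share of UMIs up to 10%. They were called endothelial where Cldn5, Flt1, Ly6c1, Pecam1 and Cdh5 together had at least 3 UMIs. An endothelial barcode was called arterial-like where Eln, Bmx and Gja4 together had at least 2 UMIs and more than both a capillary sum (Slco1a4, Slco1c1, Slc2a1, Slc7a5) and a venous sum (Ackr1, Lrg1, Vwf). This gave 96 members, 50 in library R1 and 46 in library R2, of 740 endothelial and 6026 kept barcodes. The same sums gave 429 capillary-like and 73 venous-like barcodes, and the other 142 endothelial barcodes had no subtype.

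The study is a single group of 2 libraries, R1 and R2, with no treatment or second genotype. Both came from the membranes over the cerebral hemispheres, taken at an age of 3 months from Pdgfra-H2BGFP mice of both sexes, a reporter line in which Pdgfra-expressing cells such as fibroblasts carry nuclear green fluorescent protein. The labels do not say which animals entered which library, so the error terms measure only the spread between these libraries, which may be technical. All comparisons are therefore between endothelial classes inside the same libraries.

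Endothelial cells change along the vascular tree. Arterial endothelium lies on an elastic lamina, carries Notch ligands and the connexins of arterial gap junctions, and works with the smooth muscle around it to set vessel tone. Capillary endothelium of the brain carries most of the nutrient and efflux transporters of the blood-brain barrier, and venules are the usual site of leukocyte adhesion.

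The libraries were not fully separate. Of the deposited barcode sequences, 93 were found in both libraries. Of these, 79 were kept in R1 and 78 in R2, and 66 were endothelial in both. The log counts of these 66 pairs correlated with a median r of 0.756, against a median of 0.369 over 500 pairs of capillary-like barcodes that were not shared. Such barcodes were 3 of the 50 and 3 of the 46 arterial-like members, and held 10.7% and 16.8% of the members' UMIs in R1 and R2. They held 17.2% and 27.5% of capillary-like UMIs, and 56.7% and 66.0% of venous-like UMIs. Numbers of genes called are therefore given with and without them, while many single genes are given with all barcodes only. The comparison with venous-like barcodes rests on them most. Like profiles counted in both libraries make the 2 sums of a class less independent. Adjusted p-values with all barcodes can therefore be too small. The fit's common coefficient of variation between sums was 0.166 with shared barcodes and 0.186 without them. Why they are shared was not tested.

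Members had a median of 1290.5 UMIs in R1 and 1279 in R2, with ranges of 571 to 19608 and 537 to 12526, and 116716 and 92793 UMIs in all. The deepest single barcode held 16.8% and 13.5% of these. Members were shallower than capillary-like barcodes, whose medians were 1869 and 1703 UMIs. Members were 12.9% of endothelial barcodes in R1 (exact 95% binomial interval 9.72 to 16.6%) and 13.1% in R2 (9.73 to 17.0%), and these intervals overlapped. The total includes the barcodes without a subtype. Of these, 34.2% and 40.6% had at least 3 UMIs of 10 other endothelial genes, against 96.0% and 100% of members. At least 3 UMIs of 10 fibroblast genes were in 58.9% and 52.2% of them. With an endothelial sum of at least 5, members were 14.9% and 14.7%. Intervals and detection limits here cover counting error only.

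The genes of the rule are a description and carry no test. The arterial sum had a median of 8.5 UMIs in R1 and 8 in R2, ranging from 2 to 23 and from 2 to 29. Eln, which encodes elastin, was found in 49 of the 50 R1 members and in 45 of the 46 R2 members, so it carried most of the choice. Bmx, a tyrosine kinase of arterial endothelium, was found in 29 and 26 members. Gja4, the gap junction protein connexin 37, was found in 19 and 19. Eln was the only one of the rule genes for arteries in 14 and 12 members. As background for these shares, Eln had a UMI in 1.52% and 0.573% of macrophage-like barcodes, whose median depths were 1692.5 and 1367 UMIs. Other classes had more. The arterial sum was above 0 in 27.7% and 28.8% of capillary-like barcodes and in 34.1% and 40.6% of venous-like ones. In mural-like (smooth muscle and pericyte) barcodes it was above 0 in 21.8% and 24.5%, none of it from Bmx. In fibroblast-like barcodes it was above 0 in 6.12% and 4.35%. The capillary sum was above 0 in 41 and 41 members, and the venous sum in 35 and 32. The venous sum of members was mostly Vwf, with 745 and 841 CPM (a gene's UMIs scaled to a common total of UMIs per class and library), while Ackr1 and Lrg1 had 1 UMI each in R1 and none in R2.

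**Figure D1:**
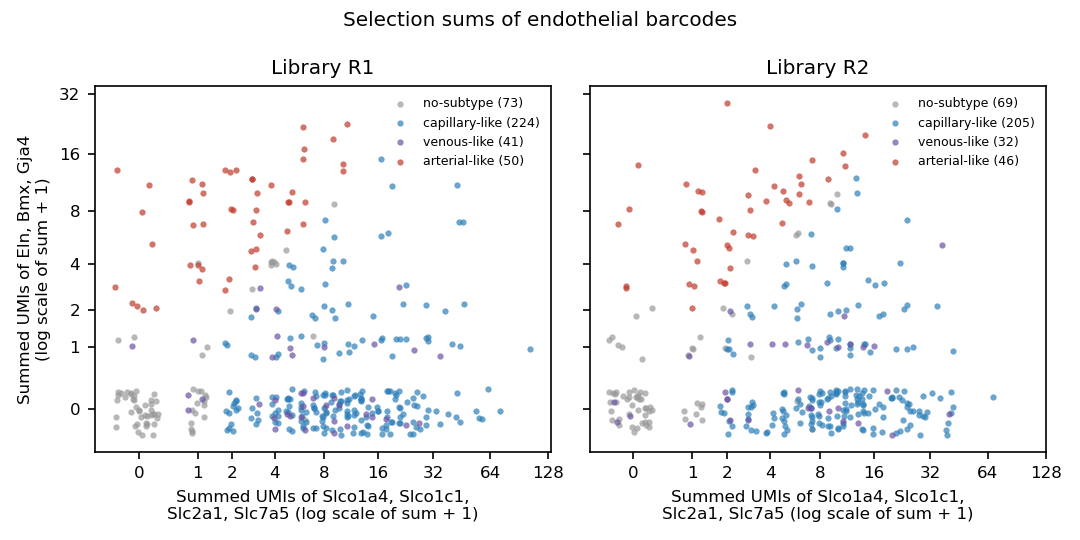
Each point is an endothelial barcode, with the summed UMIs of Slco1a4, Slco1c1, Slc2a1 and Slc7a5 across and of Eln, Bmx and Gja4 upward, both on a log scale of the sum + 1 with a small random offset. Colours mark the 4 classes with their numbers of barcodes; the 50 and 46 arterial-like members sit at the upper left, and barcodes whose capillary or venous sum is at least as high as the arterial sum stay outside the class.

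The lower edge of the class was not sharp. Only 4 members in R1 and 1 in R2 sat at the lowest arterial sum of 2, while 7 and 6 led the next sum by a single UMI. Outside the rule, 48 endothelial barcodes in R1 and 49 in R2 had an arterial sum of at least 2 but a capillary or venous sum at least as high. Most of these were capillary-like (34 and 36), and 10 in each library were ties. These excluded barcodes had median arterial sums of 3 and 3 beside capillary sums of 8 and 9. They also carried Gkn3, a gastrokine known as a marker of mouse brain arteries and absent from the rule, in 34 of 48 and 26 of 49 barcodes, against 29 of 50 and 30 of 46 members and 0.585% and 0.229% of macrophage-like barcodes. Gkn3 stood at 1120 and 1095 CPM there and at 857 and 1638 CPM in members, so these ranges overlapped across the edge of the class. In endothelial barcodes with an arterial sum of 1, Gkn3 was at 179 and 332 CPM.

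UMIs of other cell types' markers were found in many members, mostly at low counts. At least 3 UMIs of the mural, fibroblast, macrophage or neuronal list were found in 11 and 13 members. This left 39 of 50 and 33 of 46 members without such counts. Among capillary-like barcodes, 125 of 224 in R1 and 136 of 205 in R2 were without them, a smaller share in each library. The 8 smooth muscle markers summed to 263 UMIs in R1 and 266 in R2 (2253 and 2867 CPM), against 584 and 311 CPM in capillary-like barcodes. In R1, 2 barcodes held 121 and 115 of these UMIs, and in R2 1 barcode held 94.4%. The top barcode of each library was shared between libraries. No smooth muscle UMI was seen in 34 of the 50 and 36 of the 46 members. Of the 8 pericyte markers, Kcnj8 and Abcc9 were at 0 in both libraries, and the list summed to 280 and 70 UMIs, of which 1 barcode held 62.5% and 48.6%. The fibroblast list was at 2288 and 1713 CPM against 592 and 1030 CPM in capillary-like barcodes, with at least 3 UMIs in 9 and 6 members. The macrophage list reached 3 UMIs in 1 and 3 members, the neuronal list in 3 and 5 and the astrocyte list in 7 and 7. The 6 lymphatic genes summed to 12 UMIs in R1, in 6 members, and to 1 UMI in R2, all from Lyve1 and Pdpn, while Prox1 and Ccl21a had none. The 4 T and NK cell genes had none. The erythroid list had at least 1 UMI in 48 and 43 members and at least 3 in 45 and 35. 1 R1 member was 90.9% erythroid transcripts, 8431 of its 9274 UMIs, and held 97.2% of that list's UMIs in the class. Fibroblast markers were higher in members with Eln alone, at 4190 and 3485 CPM, than in members with a Bmx or Gja4 UMI, at 1835 and 654 CPM. This rested on few barcodes. At least 3 such UMIs were found in 3 of 14 and 3 of 12 members with Eln alone, and in 6 of 36 and 3 of 34 others. In R2 the top 2 members held 63 and 48 UMIs, beside 121 in all members with Eln alone and 38 in the others.

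Against capillary-like barcodes, 627 of 4221 genes passed an adjusted p of 0.05 (14.9%), 329 higher (7.79%) and 298 lower (7.06%) in arterial-like barcodes. Without the shared barcodes 462 of 4075 genes passed (11.3%), 239 higher (5.87%) and 223 lower (5.47%). Counts were summed per class and library, so each value rests on 2 sums per class. The ± value of a log2 fold change is its size divided by the square root of the F statistic of the test. It is not the standard error of a fitted coefficient, and can be too small where a class has almost no UMIs. The rule genes were left out of the test. The classes were set by arterial and transporter genes, and the lists below were drawn up with results of these data known. The direction of the arterial and transporter lists is therefore not independent evidence. Lists also share genes, so their counts are not separate results. Fbln5, Jag1, Dll4, Efnb2, Gja5, Edn1, Ace and Sema3g, for example, are on the arterial list and on at least 1 other. Counts per list stand beside the 14.9% of all genes that passed.

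Of 24 tested arterial genes outside the rule, 18 rose and 1 fell against capillary-like barcodes, with a median log2 fold change of 1.96 beside 0.01 over all genes. Without shared barcodes 17 of 23 rose and none fell. Fbln5, an extracellular protein that organises elastic fibres, was at 1405 and 1832 CPM in arterial-like and at 105 and 194 CPM in capillary-like barcodes of R1 and R2. Both arterial values lay far above both capillary ones, and the log2 fold change was 3.49 ± 0.29 (adjusted p = 1.04e-09). Mgp, matrix Gla protein, an inhibitor of vascular calcification, had 8482 and 9742 CPM against 1154 and 1956 CPM (2.60 ± 0.29, adjusted p = 1.24e-07). Clu, the secreted chaperone clusterin, had 1782 and 2112 CPM against 377 and 379 CPM (2.38 ± 0.26, adjusted p = 1.18e-07). Each of these genes was higher in both libraries and stayed past the threshold without shared barcodes.

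Gkn3 rose by 1.96 ± 0.30 (857 and 1638 against 278 and 361 CPM, adjusted p = 2.52e-05). Mural-like barcodes held 0 and 5.68 CPM of Gkn3 and fibroblast-like barcodes 1.59 and 1.41 CPM. Sema3g, a secreted semaphorin of arterial endothelium, was at 463 and 323 CPM against 131 and 75.4 CPM and rose by 1.96 ± 0.30 (adjusted p = 3.27e-05). Cytl1, a small secreted protein, was at 608 and 1142 CPM against 39.9 and 130.2 CPM. It rose by 3.45 ± 0.37 (adjusted p = 7.65e-08), but did not pass with DESeq2 (adjusted p = 0.111). Stmn2, a microtubule regulator, rose by 2.03 ± 0.29, and Htra1, a secreted serine protease, by 2.05 ± 0.32.

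Not every gene linked to arteries was higher. Sox17, a transcription factor of arterial identity, had 531 and 474 CPM against 342 and 498 CPM, overlapping ranges, and its difference was 0.33 ± 0.28 on the log2 scale (adjusted p = 0.465). Nrp1, a semaphorin and VEGF co-receptor, had 283 and 183 CPM against 239 and 208 CPM (0.09 ± 0.30), and Alpl, alkaline phosphatase, 206 and 215 CPM against 165 and 128 CPM (0.54 ± 0.31). Vegfc missed the threshold at 1.09 ± 0.38 (adjusted p = 0.052). Depp1 went the other way, at 17.1 and 10.8 CPM against 141 and 139 CPM (-3.22 ± 0.63, adjusted p = 0.000631, and 0.0526 with DESeq2). Crip1 rose by 0.93 ± 0.29 but not without shared barcodes (0.53, adjusted p = 0.367). Igf2 rose by 1.58 ± 0.34, and by only 0.09 (adjusted p = 0.944) where members needed a Bmx or Gja4 UMI. Igf2 stood at 2876 and 1665 CPM in mural-like barcodes, and the part of other cells in its rise was not tested.

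**Figure D2:**
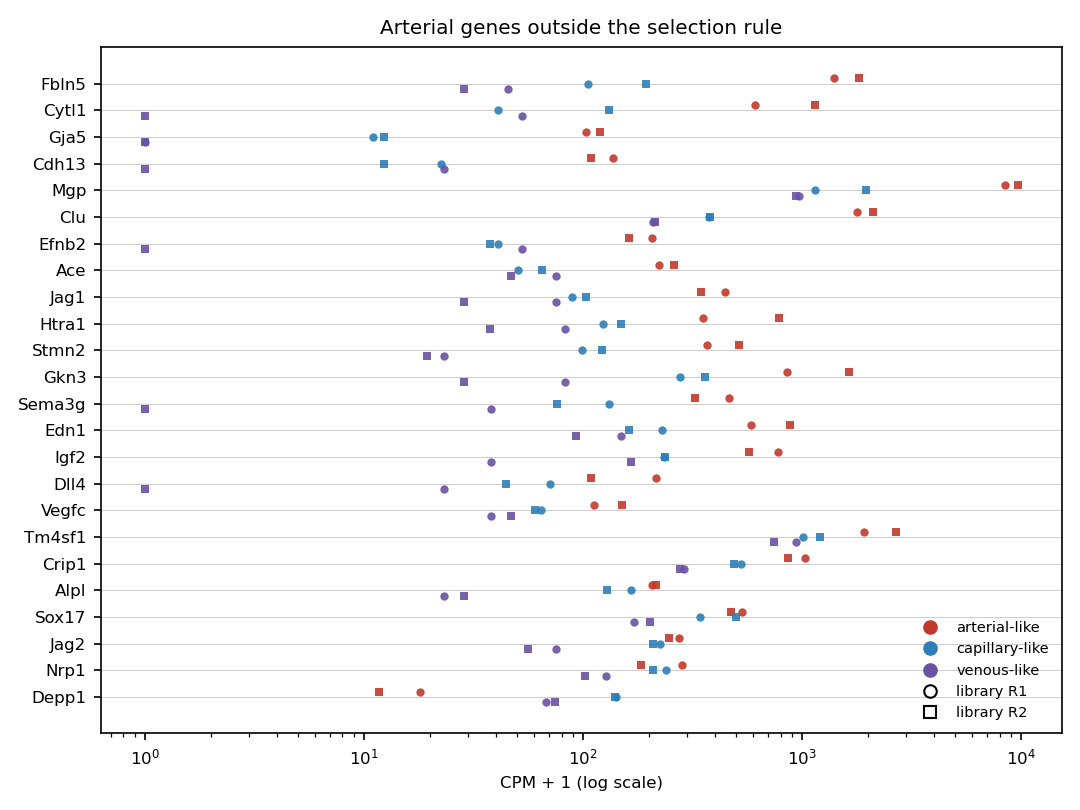
CPM + 1 on a log scale for the 24 tested arterial genes outside the rule, with circles for library R1 and squares for R2 and colours for the arterial-like, capillary-like and venous-like classes. Genes are ordered by their log2 fold change against capillary-like barcodes, from Fbln5 (3.49) at the top to Depp1 (-3.22) at the bottom, and around Sox17 and Nrp1 the arterial and capillary values overlap.

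The sequences just upstream of some of these genes are shown because Fbln5 and Gkn3 were higher in the class, and Bmx because the rule chose members by it. Promoter sequences were matched for 16 of the 21 genes looked up, 14 of them outside the rule, and they cover the 250 bases before each annotated start (RefSeq, GRCm38.p6). By the GENCODE M21 annotation of GRCm38, Bmx lies on the minus strand of chromosome X (gene at 164192842 to 164258193), Fbln5 on the minus strand of chromosome 12 (gene at 101746565 to 101819055) and Gkn3 on the minus strand of chromosome 6 (gene at 87383256 to 87388935). Their windows run from 164258194 to 164258443, from 101819120 to 101819369 and from 87388936 to 87389185. Capitals mark 2 short motifs on either strand, the core bound by the Notch effector RBPJ (TGGGAA) and a SOX core (ACAAT).
Bmx: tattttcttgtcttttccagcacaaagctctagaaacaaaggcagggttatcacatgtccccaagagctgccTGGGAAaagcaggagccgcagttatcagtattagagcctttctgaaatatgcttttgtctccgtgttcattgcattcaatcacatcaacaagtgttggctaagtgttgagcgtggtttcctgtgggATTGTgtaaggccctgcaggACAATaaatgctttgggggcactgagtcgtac
Fbln5: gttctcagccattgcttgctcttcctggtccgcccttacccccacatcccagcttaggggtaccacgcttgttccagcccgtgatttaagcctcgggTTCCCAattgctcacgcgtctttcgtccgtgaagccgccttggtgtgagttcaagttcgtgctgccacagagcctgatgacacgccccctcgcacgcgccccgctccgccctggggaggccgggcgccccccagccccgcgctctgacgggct
Gkn3: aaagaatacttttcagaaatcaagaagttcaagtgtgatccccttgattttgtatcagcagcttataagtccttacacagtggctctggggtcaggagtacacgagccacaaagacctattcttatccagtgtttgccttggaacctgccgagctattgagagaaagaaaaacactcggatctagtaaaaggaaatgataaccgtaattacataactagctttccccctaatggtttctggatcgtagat
The Bmx window held 1 RBPJ core and 2 SOX cores, the Fbln5 window 1 RBPJ core, and the Gkn3 window neither. Over the 16 promoters, 4 held the RBPJ core, against 21.5% of 27025 promoters, and 5 the SOX core, against 28.3%. Outside the rule genes each core was in 3 of 14 promoters. The AP-1 motif TGACTCA was in 0 of 16 and in 4.43% of all. With so few promoters these counts are a description only.

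Matrix genes were described by the elastic fibre and by the basement membrane. Of 10 tested genes of elastic fibre assembly, 8 rose and none fell (median log2 fold change 1.53). Fbln2, a fibulin, had 266 and 215 CPM against 28.3 and 50.3 CPM and rose by 2.69 ± 0.39 (adjusted p = 1.17e-05). Fbn1, the microfibril protein fibrillin-1, had 111 and 75.4 CPM against 8.31 and 11.4 CPM (3.25 ± 0.72, adjusted p = 0.00207). Mfap2, a microfibril-associated protein, rose by 2.64 ± 0.70 (adjusted p = 0.00936, but 0.0564 with DESeq2 and 0.0890 where members needed a Bmx or Gja4 UMI). Without shared barcodes 6 of the 10 rose, and 3 passed where barcodes with markers of other cell types were left out, a setting that tested 1705 genes in all. The fibroblast and smooth muscle lists, given above, were also higher in members than in capillary-like barcodes in both libraries, and their part in these rises was not tested.

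Of 13 basement membrane genes, 4 rose and 1 fell, with a median of 0.11. Without shared barcodes 3 rose and 1 fell. Col18a1, the precursor of endostatin, had 146 and 172 CPM against 28.3 and 36.6 CPM (2.31 ± 0.48, adjusted p = 0.00123). Lama3, a laminin chain, rose by 3.24 ± 1.02 (adjusted p = 0.0300, and 0.0590 with DESeq2), and Nid1, nidogen, by 1.62 ± 0.41 (adjusted p = 0.00623, and 0.160 with DESeq2). Col4a2, a collagen IV chain, went down, from 239 and 233 CPM in capillary-like to 68.5 and 53.9 CPM in arterial-like barcodes (-1.89 ± 0.38, adjusted p = 0.000747). Nid1 also stood at 259 and 165 CPM in mural-like barcodes, and their part in its value was not tested.

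Of 13 tested genes of the Notch pathway 4 rose, the ligands Jag1 and Dll4, the receptor Notch4 and the target Efnb2, and 1 fell, the modifier Lfng (median 0.32). Among the ligands, Jag1 had 445 and 345 CPM against 88.1 and 103 CPM and rose by 2.09 ± 0.29 (adjusted p = 7.78e-06). Dll4 had 214 and 108 CPM against 69.8 and 43.4 CPM and rose by 1.54 ± 0.38 (adjusted p = 0.00585), short of the threshold with DESeq2 (0.263). Jag2 did not pass, with 274 and 248 CPM against 224 and 208 CPM (0.30 ± 0.28). Among the receptors, Notch4 had 180 and 237 CPM against 76.5 and 105 CPM and rose by 1.23 ± 0.31 (adjusted p = 0.00645, and 0.284 with DESeq2). Notch1 had 257 and 269 CPM against 234 and 217 CPM (0.24 ± 0.30, adjusted p = 0.635). Lfng, a glycosyltransferase that modifies Notch receptors, had 8.57 and 21.6 CPM against 63.2 and 165 CPM and fell by 2.83 ± 0.68 on the log2 scale (adjusted p = 0.00471, and 0.107 with DESeq2).

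Of the Notch targets Efnb2 passed the test. Efnb2, ephrin-B2, the membrane ligand that marks arteries, had 206 and 162 CPM against 39.9 and 36.6 CPM (2.29 ± 0.42, adjusted p = 0.00031). Hes1 had 163 and 205 CPM against 203 and 258 CPM (-0.30 ± 0.31, adjusted p = 0.567). Hey1 and Hey2, classical arterial Notch targets, had too few counts to be tested. Hey1 was at 34.3 and 32.3 CPM against 49.9 and 48.0 CPM, on 4 and 3 barcodes with a UMI among members, and Hey2 at 25.7 and 32.3 CPM against 19.9 and 6.85 CPM. At this depth a difference in either was not detectable.

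Of 5 tested gap junction genes, 3 rose and none fell. Gja5, connexin 40 of arterial endothelium, had 103 and 119 CPM against 9.97 and 11.4 CPM and rose by 3.34 ± 0.75 (adjusted p = 0.00243). It was found in 8 and 10 members. Gjb6 and Gjb2, connexins 30 and 26, rose by 1.65 ± 0.31 and 1.63 ± 0.33, on 9 and 9 and on 10 and 9 members, and 1 barcode held 42.2% and 48.5% of the members' Gjb6 UMIs in R1 and R2. Both were lost where members needed a Bmx or Gja4 UMI (0.73 and 1.14, adjusted p = 0.543 and 0.155). Gjb6 stood at 906 and 681 CPM in fibroblast-like and at 898 and 563 CPM in mural-like barcodes, and the part of such RNA in these rises was not tested. Gja1, connexin 43, had 206 and 291 CPM against 166 and 98.2 CPM (0.92 ± 0.33, adjusted p = 0.0609), and Gjc1, connexin 45, 68.5 and 43.1 CPM against 84.8 and 135 CPM (-0.86 ± 0.48, adjusted p = 0.236).

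Of 15 tested genes of vascular tone and shear response, 5 rose and none fell (median 0.27). Without shared barcodes 4 rose and none fell. Edn1, the vasoconstrictor endothelin 1, had 583 and 884 CPM against 229 and 162 CPM (1.90 ± 0.29, adjusted p = 3.27e-05). Ace, angiotensin-converting enzyme, had 223 and 259 CPM against 49.9 and 64.0 CPM (2.10 ± 0.39, adjusted p = 0.000337). Ptgis, prostacyclin synthase, rose by 1.79 ± 0.35 (adjusted p = 0.000641). Kcnn4, a calcium-activated potassium channel of endothelium-dependent dilation, had 94.2 and 140.1 CPM against 13.3 and 18.3 CPM (2.87 ± 0.63, adjusted p = 0.00189). Genes of both constriction and dilation were thus among those that rose.

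Of 16 tested genes of the TGF-beta and BMP pathway, 3 rose and 1 fell. The ligands Bmp4 and Bmp6 rose by 1.80 ± 0.36 (188 and 162 against 46.5 and 57.1 CPM, adjusted p = 0.000693) and 2.28 ± 0.55 (119.9 and 53.9 against 11.6 and 27.4 CPM, adjusted p = 0.00494). Smad6, an inhibitor of BMP signalling, rose by 1.52 ± 0.45 (adjusted p = 0.0204) but not without shared barcodes (1.04, adjusted p = 0.314), and the receptor Tgfbr2 went down (-1.17 ± 0.37, adjusted p = 0.0310). With DESeq2, Bmp4 alone of these passed. In the VEGF and angiopoietin pathway 1 of 9 tested genes rose and 3 fell. Kdr, the main VEGF receptor of endothelium, had 0 and 32.3 CPM in arterial-like barcodes, on 0 and 3 members, against 514 and 516 CPM in capillary-like ones (-5.08 ± 0.55, adjusted p = 7.8e-08). Nrp2, a VEGF and semaphorin co-receptor, went down from 161 and 239.9 to 34.3 and 64.7 CPM (adjusted p = 0.00146) and Tie1 by -1.02 ± 0.33 (adjusted p = 0.0339, and 0.299 with DESeq2). Vegfa rose by 2.08 ± 0.57 (adjusted p = 0.0115, and 0.119 with DESeq2), but 1 barcode held 69.2% of its R1 UMIs and 1 held 62.5% of its R2 UMIs.

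Guidance genes moved both ways, with 6 of 16 tested higher and 5 lower (median 0.33). Sema3f had 137 and 64.7 CPM against 9.97 and 9.14 CPM (3.38 ± 0.76, adjusted p = 0.00226). Sema3c, of the same secreted semaphorin class, had 8.57 and 21.6 CPM against 449 and 413 CPM (-4.83 ± 0.50, adjusted p = 4.65e-08). Among the class 3 semaphorins, Sema3f and Sema3g were thus higher and Sema3c lower in both libraries. Robo4, a receptor that stabilises vessels, fell by 2.14 ± 0.46 on the log2 scale (adjusted p = 0.00168, and 0.128 with DESeq2). Of 16 tested transcription factors of endothelium, 1 rose (Foxc2, 2.06 ± 0.66, adjusted p = 0.0322, and 0.0514 without shared barcodes) and 4 fell. Among those that fell were Ets2 (-3.15 ± 0.79), Tbx3 (-2.50 ± 0.63) and Fli1 (-1.69 ± 0.41), and with DESeq2 none of the 16 passed. Without shared barcodes 3 of 15 fell and none rose.

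The barrier programme was lower in arterial-like than in capillary-like barcodes. Of 19 tested genes of barrier transport outside the rule, 17 fell and none rose (median -1.92), and without shared barcodes 16 fell. Slc38a5, an amino acid transporter, had 0 and 21.6 CPM against 404 and 628 CPM (-5.62 ± 0.61, adjusted p = 7.8e-08). Mfsd2a, which carries lysophosphatidylcholine lipids and limits transcytosis, had 8.57 and 0 CPM against 175 and 151 CPM (-4.93 ± 0.71, adjusted p = 9.74e-06). Tfrc, the transferrin receptor, had 8.57 and 10.8 CPM against 269 and 229 CPM (-4.61 ± 0.62, adjusted p = 4.42e-06). Itm2a, a membrane protein abundant in brain endothelium, had 283 and 215 CPM against 3388 and 3735 CPM (-3.80 ± 0.32, adjusted p = 1.04e-09). All 4 were lower in both libraries, with no overlap.

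WNT signalling maintains the barrier in brain endothelium. Of 13 tested genes of that pathway 4 fell and 1 rose, and without shared barcodes 3 fell and 1 rose. Lef1, a nuclear effector of WNT signalling, had 103 and 75.4 CPM against 342 and 336 CPM (-1.88 ± 0.36, adjusted p = 0.000437). Apcdd1, a WNT inhibitor, went down by a log2 fold change of -1.69 ± 0.38 (adjusted p = 0.00246, and 0.0875 with DESeq2). Foxf2 went down by -1.98 ± 0.55 (adjusted p = 0.0129). It did not pass without shared barcodes (0.0750), with DESeq2 (0.266) or where members needed a Bmx or Gja4 UMI (0.0940). Reck, part of the WNT7 receptor complex, went the other way, with 454 and 593 CPM against 128 and 119 CPM (2.09 ± 0.27, adjusted p = 2.38e-06). Of 11 tested junction genes 2 fell and none rose (18.2% called, against 14.9% of all genes). They were Jam2 (-1.42 ± 0.34, adjusted p = 0.00465) and Ocln, occludin (-1.28 ± 0.38, adjusted p = 0.0217). Neither passed with DESeq2 or where members needed a Bmx or Gja4 UMI. Without shared barcodes Jam2 passed and Ocln did not (-1.15, adjusted p = 0.0624).

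Some transcripts of capillary-like barcodes were not seen in members at all. Car4, a carbonic anhydrase of capillary endothelium, had 0 UMIs in members of both libraries, which allows up to 25.7 and 32.3 CPM, against 587 and 576 CPM in capillary-like barcodes. This is at least 17.8-fold lower, set against the limit that 0 UMIs allows in each library, and at least 14.4-fold lower without shared barcodes. Ctla2a, a cathepsin inhibitor, was likewise at 0 against 791 and 1199 CPM, at least 30.8-fold lower and at least 26.2-fold lower without shared barcodes. Tmtc2, Stx3, Slc1a1 and Fendrr were also at 0, at least 2.61-, 2.39-, 2.19- and 2.05-fold lower, and passed the test, although Slc1a1 had too few counts to be tested without shared barcodes. Lcn2 was at 0 as well, but without shared barcodes its fall did not pass (adjusted p = 0.238). On the list of venous and leukocyte adhesion genes, 6 of 17 tested fell and 1 rose. Without shared barcodes 5 of 16 fell and 1 rose. Emcn, endomucin, of capillary and venous endothelium, had 17.1 and 10.8 CPM against 397 and 436 CPM (-4.78 ± 0.51, adjusted p = 7.65e-08), and Tmsb10, a thymosin, fell by 2.42 ± 0.31 on the log2 scale.

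**Figure D3:**
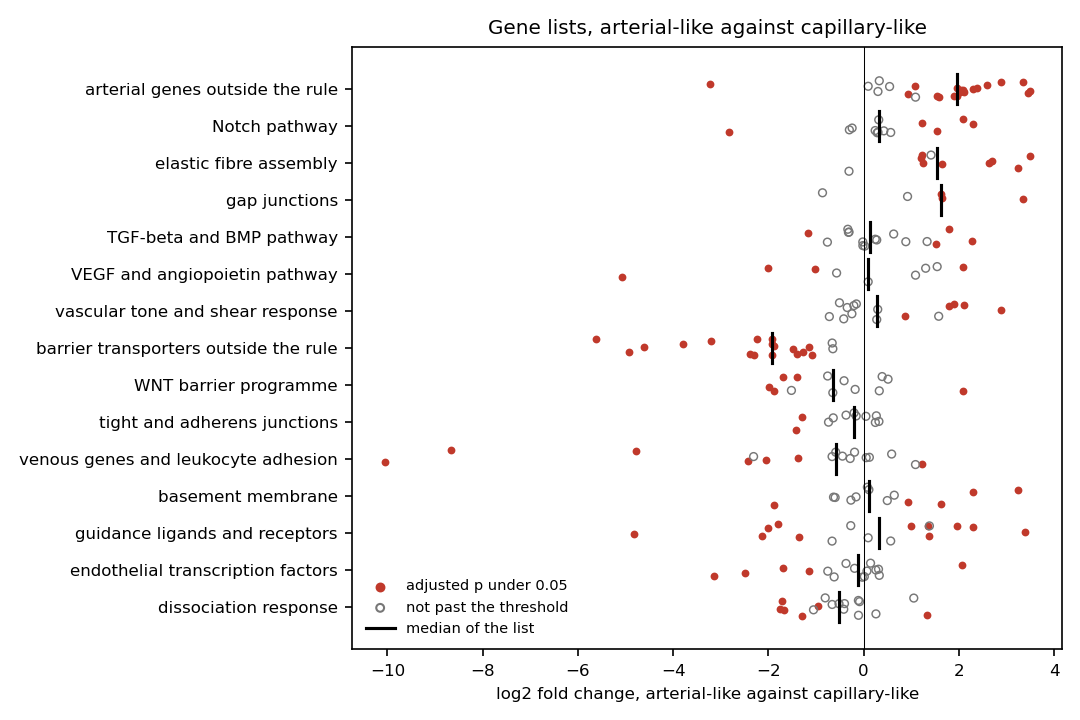
Log2 fold change of each tested gene of 15 lists, arterial-like against capillary-like; filled red points passed an adjusted p of 0.05, open points did not, and black bars are list medians. The median is 1.96 for arterial genes outside the rule and -1.92 for barrier transporters, while the lists for Notch (0.32), basement membrane (0.11) and transcription factors (-0.11) straddle 0.

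Genes outside these lists were also among those with the highest fold changes against capillary-like barcodes. Sdc1, a heparan sulphate proteoglycan of the cell surface, had 119.9 and 280.2 CPM against 3.32 and 18.3 CPM (4.24 ± 0.55, adjusted p = 2.43e-06), on 9 and 18 members, none of them shared. Itgb4, the integrin subunit that binds laminin in hemidesmosomes, had 154 and 129 CPM against 8.31 and 18.3 CPM (3.47 ± 0.56, adjusted p = 6.41e-05). Fblim1, an adaptor of cell-matrix adhesions, rose by 3.31 ± 0.74 (adjusted p = 0.00244), and Dkk2, a secreted WNT modulator, by 3.14 ± 0.86 (adjusted p = 0.0127, and 0.0682 with DESeq2). Acta2 and Tagln, which encode contractile proteins of smooth muscle, rose by 3.30 ± 0.33 and 3.27 ± 0.35, but 1 shared barcode held 94.5% and 100% of their R2 UMIs. Without shared barcodes Acta2 rose by 1.80 (adjusted p = 0.00434) and Tagln did not pass (0.78, adjusted p = 0.362). The R1 member that held 115 UMIs of the smooth muscle list was not shared and stayed in that fit. Its part in the Acta2 call was not tested.

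Against venous-like barcodes, 910 of 4221 genes passed (21.6%), 451 higher (10.7%) and 459 lower (10.9%), but without shared barcodes only 141 of 4075 passed (3.46%), 64 higher (1.57%) and 77 lower (1.89%). With 41 and 32 venous-like barcodes in all, and 28 and 20 left without shared ones, the smaller count also rests on fewer cells. The median of all genes was 0.11 on the log2 scale, so changes are read relative to it. Of the 24 tested arterial genes outside the rule 22 rose and 1 fell (median 2.95). Without shared barcodes 13 of 23 rose and none fell, and the median was 1.94.

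Several arterial genes were higher than in venous-like barcodes with and without the shared ones. Fbln5 had 1405 and 1832 CPM against 44.6 and 27.6 CPM in venous-like barcodes, a log2 fold change of 5.37 ± 0.41 (adjusted p = 8.45e-11), and 4.22 without shared barcodes (adjusted p = 4.65e-07). Gkn3 had 857 and 1638 CPM against 81.8 and 27.6 CPM (4.35 ± 0.42, adjusted p = 7.59e-09), and 2.65 without shared barcodes (adjusted p = 0.000868). Sema3g had 463 and 323 CPM against 37.2 and 0 CPM (4.25 ± 0.52, adjusted p = 4.04e-07, and 3.20 with an adjusted p of 0.000716 without shared barcodes). Cytl1 rose by 4.79 ± 0.54 and by 3.54 without shared barcodes, and Fbln2 by 3.81 ± 0.62 and by 2.77. In the Notch pathway Dll4 rose by 3.69 ± 0.67 (2.74 without shared barcodes), Jag1 by 2.87 ± 0.41 (1.77) and Notch4 by 2.78 ± 0.49 (2.91), while Lfng fell by 3.49 ± 0.70 on the log2 scale, and all 4 passed both ways. Jag2 and Efnb2 rose by 1.96 ± 0.40 and 2.66 ± 0.59 but lost their calls without shared barcodes (0.83 and 1.57, adjusted p = 0.455 and 0.228). Reck rose by 3.76 ± 0.41, and by 3.50 without shared barcodes.

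Gja5 of the arterial list, and other genes not on that list, had no UMI in venous-like barcodes, so that only bounds can be given. Syt15, a synaptotagmin, had 18 and 16 UMIs in members and 0 in venous-like barcodes, at least 6.24-fold higher, and at least 2.39-fold without shared barcodes. Tspan2, a tetraspanin, was at least 5.46-fold higher (1.91 without shared barcodes), and both passed the test either way. Gja5 was at least 4.29-fold higher, but its call was lost without shared barcodes (adjusted p = 0.0704), as were those of Fblim1 (0.0700), Dkk2 (0.152), Tnfrsf11b (0.0634), Pgf (0.145) and Cdh11 (0.0798). Pid1, Col23a1, Igsf3 and Sdc2 were also at 0 in venous-like barcodes and passed both ways, although 1 barcode held 87.5% of the members' Col23a1 UMIs in R1. They were at least 3.84-, 3.07-, 1.17- and 2.34-fold higher. Without shared barcodes the bounds were 1.68-fold for Pid1 and 1.49-fold for Col23a1. For Igsf3 and Sdc2 the UMIs then set no bound above equal levels. The other gap junction calls and all 6 calls of the TGF-beta and BMP list against venous-like barcodes were lost without shared barcodes.

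On the lower side, Slc38a5 had 0 and 21.6 CPM against 1234 and 1097 CPM in venous-like barcodes (-6.89 ± 0.57, adjusted p = 4.02e-10) and -6.54 without shared ones. Ctla2a was at least 45.6-fold lower, and at least 34.1-fold lower without shared barcodes. Ptgs2, the inducible cyclooxygenase, was at 0 against 446 and 498 CPM, at least 15.4-fold lower, and at least 11.1-fold without shared barcodes. Kdr (-4.68 ± 0.60), Sema3c (-3.82 ± 0.59) and Nrp2 (-2.72 ± 0.44) were lower than in venous-like barcodes as well, and passed both ways. Emcn, at 17.1 and 10.8 CPM against 290 and 341 CPM, had a log2 fold change of -4.43 ± 0.56 (adjusted p = 7.77e-07). Lcn2, the acute-phase protein lipocalin 2, had 4021 and 4129 CPM in venous-like barcodes and 0 UMIs in members, but nearly all of it lay in shared barcodes. Without them 9 and 3 UMIs were left in the venous-like class and the call was lost (adjusted p = 0.0578). The calls of Car4 and Cxcl2 against venous-like barcodes rested on shared barcodes too, since Car4 then did not pass (adjusted p = 0.0785) and Cxcl2 had no UMI left.

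The early response genes that tissue dissociation can induce went with the shared barcodes. Of 17 such genes tested against venous-like barcodes 13 fell and none rose (median -2.56), while without shared barcodes 1 of the 13 still tested fell (Ier3) and the median was 0.31. Jun, a subunit of the AP-1 transcription factor, had 411 and 517 CPM in arterial-like against 5039 and 5751 CPM in venous-like barcodes, a log2 fold change of -3.58 ± 0.32 (adjusted p = 1.52e-09) that became 0.78 without shared barcodes (adjusted p = 0.608). Fosb went from -3.11 ± 0.36 to 0.47. Ier3 stayed lower, at -3.42 ± 0.31 and -3.13 without shared barcodes (adjusted p = 0.00079). Against capillary-like barcodes 5 of the 17 fell and 1 rose, and without shared barcodes 1 of 13 fell and 1 rose. Nr4a1, an early response nuclear receptor, rose against capillary-like barcodes by 1.34 ± 0.35 (adjusted p = 0.00855), and by 2.52 without shared barcodes, but did not pass with DESeq2 (adjusted p = 0.119).

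**Figure D4:**
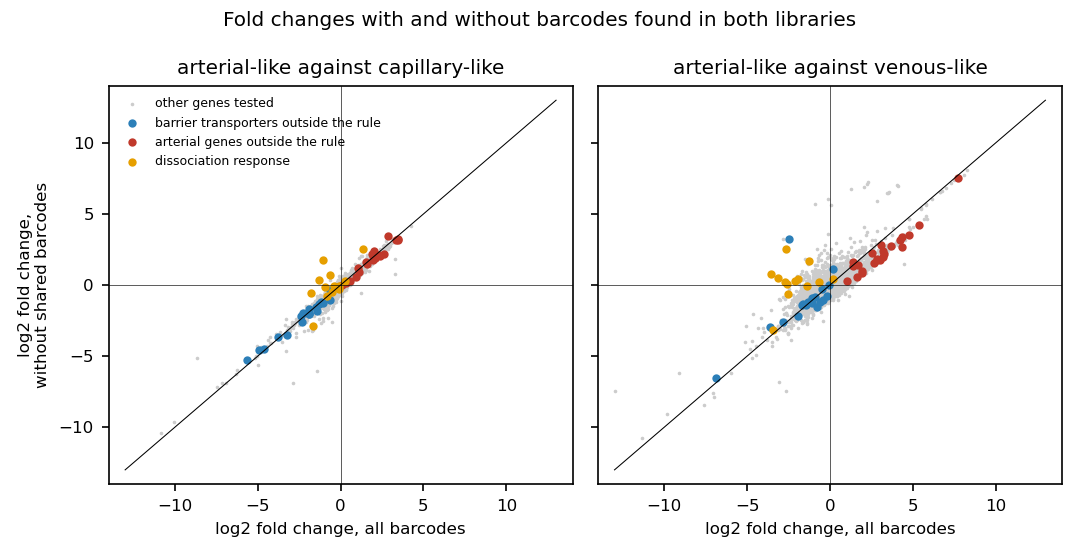
Log2 fold change of each gene with all barcodes (across) and without the barcodes found in both libraries (upward), arterial-like against capillary-like on the left and against venous-like on the right; the diagonal marks equal values. Arterial genes (red) and barrier transporters (blue) lie near the diagonal on the left, while on the right most early response genes (orange) leave it, their median moving from -2.56 to 0.31. The median of the arterial genes also moves on the right, from 2.95 to 1.94.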

How the data were processed

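Leptomeninges of Pdgfra-H2BGFP mice were dissociated and loaded on a Chromium controller with a target of 5000 cells per sample, per the labels' protocols. The deposited values are unnormalized UMI counts, and the file headers name Cell Ranger 4.0.0 as the software, and mm10 is named in the submitters' processing notes. They hold 7276 and 6743 barcodes and 32287 features. The members and gene lists were chosen with earlier results of these data known. Counts of 4 endothelial classes were summed per library into 8 sums and tested with edgeR 4.0.16 (quasi-likelihood test, TMM, filterByExpr, library as a block, 3 residual degrees of freedom, Benjamini-Hochberg adjustment over all genes, threshold 0.05); adjusted p-values are edgeR's unless DESeq2 (1.42.0) is named. The 15 rule genes stayed in the library sizes only. Genes named were, per comparison, the 12 highest and 8 lowest by fold change among called genes whose higher class averaged 50 CPM or more and whose direction was the same in both libraries (no rule, mitochondrial or ribosomal genes or gene models), up to 4 called members per list, and all Notch, gap junction and arterial genes. Single-library differences used a prior count of 2. Comparison classes of other cells needed a marker sum of at least 5. Doublets were not removed; marker lists of other cell types are given instead. Sharing of a library number pairs the classes by design, since every class comes from the same 2 libraries. The fit was also run on simulated counts drawn independently for each sum. That setting has no shared barcodes, so it cannot show how they affect the calls, and its outcome is not given here.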

Additional observations from a re-analysis of the deposited data

How the results depend on the processing

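The number of genes called against capillary-like barcodes (627) was 251 where members needed a Bmx or Gja4 UMI, 296 without barcodes carrying markers of other cell types, 359 without the deepest barcode of each class, 180 with DESeq2, 322 at equal UMI totals and 257 with each barcode thinned to at most 1000 UMIs. Against venous-like barcodes (910) it was 402 under the Bmx or Gja4 requirement, 574 without other markers, 141 without shared barcodes, 373 with DESeq2 and 230 after thinning. Without the library as a replicate block, 561 and 870 genes were called. With no filter on low counts, 34.4% of 717 calls against capillary-like barcodes were higher, against 52.5% with the filter, and 35.0% of 835 against venous-like barcodes, against 49.6%. The share of members moved to 9.28% (R1) and 9.66% (R2) under the Bmx or Gja4 requirement, and to 17.9% (R1) and 15.3% (R2) without other markers. The settings without shared barcodes, without the deepest barcode and with thinned barcodes were chosen after seeing the data. Leaving out a library left no residual degrees of freedom, so only single-library differences were computed. Of 175 named results 173 kept their direction without R1, and all 175 without R2. This was largely set by the choice of genes and is no separate evidence. Genes named by fold change needed the same direction in both libraries, and most others were called on sums of both. Directions that turned were Jun (0.78) and Fosb (0.47) against venous-like barcodes without shared ones, and Col4a2 (0.51) and Hes1 (-0.19) against venous-like barcodes after thinning. Against capillary-like barcodes they were Hes1 without other markers (0.10), Nrp1 at most 5% mitochondrial UMIs (-0.027), without the filter (-0.15) and without R1 (-0.18, and 0.29 without R2), Sox17 without R1 (-0.079, and 0.68 without R2) and Notch1 without the filter (-0.0046). None of these passed a test there, and the cause was not tested. Without shared barcodes 51 named results kept their direction but lost their call, beside Jun and Fosb, and 44 did so under DESeq2. Under the Bmx or Gja4 requirement 38 did so. Against capillary-like barcodes these included Nid1, Bmp6, Tgfbr2, Vegfa, Tie1, Foxf2, Tbx3, Fli1, Foxc2 and Nr4a1. Depth limits genes such as Hey1 and Hey2, with 3 or 4 members holding a UMI.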
